A study of Mus musculus with 19 samples.

Results

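A set of 43 interferon-stimulated and guanylate-binding genes was followed through 19 RNA sequencing libraries from mouse bone marrow cells. The genes were picked by symbol as a module, and all 43 are present among the 46095 symbols of the count table. They and the further gene lists below were chosen with earlier results of these data known. Counts over them are therefore descriptive and not independent evidence. The cells came from C57BL/6 mice and were labelled bone marrow-derived macrophages (BMDM), which are grown from marrow with the growth factor M-CSF, or bone marrow mesenchymal stem cells (BMSC), the adherent stromal cells of marrow. Hypergravity animals were centrifuged at 15 G for 15 min per session, over about 1 or 3 weeks, and the labels list the controls at 0 G with normal feeding. The BMDM libraries comprised 3 controls and 2 hypergravity libraries in the 1 week set, and 2 of each in the 3 week set. The BMSC libraries comprised 3 of each in the 1 week set and 2 of each in the 3 week set. The labels give the controls of the 1 week set no duration, and matching sample names placed them with the 1 week animals. Duration therefore cannot be told apart from the set in which libraries were made. The labels do not tie a replicate to its own animal or culture, and a p-value here weighs a difference only against the scatter of these libraries, some or all of which may be technical.

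Type I interferons such as interferon beta can be secreted when cells detect foreign or misplaced nucleic acid. They act through the receptor chains Ifnar1 and Ifnar2 and a factor complex that includes Stat2 and Irf9. That complex binds the interferon-stimulated response element. Interferon gamma, made mainly by T and NK cells, acts through Ifngr1 and Ifngr2 and on genes with a gamma-activated site. The targets include nucleic acid sensors, enzymes that block viral translation or replication, and GTPases that attack the vacuoles of intracellular microbes, and macrophages are well known to respond to both interferon types.

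Most of the matched members carry a response element core close to their start site. Of the 43 genes, 33 matched a RefSeq promoter entry (GRCm38.p6, 250 bases before to 50 after the start). Dhx58, Iigp1, Mx1, Mx2, Oas2, Parp14, Parp9, Rtp4, Usp18 and Zbp1 had no entry. The core GAAANNGAAA of the interferon-stimulated response element was searched on both strands, and a gene counted if any of its promoter entries matched. It was present in 20 of 33 members (60.6%), against 3.99% of the 27025 genes with an entry. The gamma-activated site TTCNNNGAA, which reads the same on both strands, was present in 9 of 33 (27.3%), against 9.55% of all genes with an entry. Both motifs were found in 7 members (Bst2, Eif2ak2, Gbp5, Gbp7, Igtp, Irgm2 and Oas1a), and 11 had neither, among them Oasl1, Irf7 and Cmpk2. A match is a description of letters, not of a bound site.

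Promoters of 4 genes that the results below return to are shown 5′ to 3′ on the strand of the gene, as the 250 bases before the RefSeq start, with motif matches in capitals. They are Isg15 (chr4:156200819-156201068, minus strand), Ifit1 (chr19:34640639-34640888, plus strand), Gbp5 (chr3:142496684-142496933, plus strand) and Oasl1 (chr5:114922990-114923239, plus strand). In Isg15, 3 overlapping response element cores run together between bases -78 and -57. Ifit1 has 2 cores on the opposite strand, Gbp5 has 1 such core between 2 gamma-activated sites, and Oasl1 has neither motif.
Isg15: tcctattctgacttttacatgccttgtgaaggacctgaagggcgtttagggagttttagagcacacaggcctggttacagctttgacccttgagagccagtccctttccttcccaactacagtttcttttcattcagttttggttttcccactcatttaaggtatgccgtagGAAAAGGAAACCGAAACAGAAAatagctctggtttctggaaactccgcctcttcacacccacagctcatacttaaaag
Ifit1: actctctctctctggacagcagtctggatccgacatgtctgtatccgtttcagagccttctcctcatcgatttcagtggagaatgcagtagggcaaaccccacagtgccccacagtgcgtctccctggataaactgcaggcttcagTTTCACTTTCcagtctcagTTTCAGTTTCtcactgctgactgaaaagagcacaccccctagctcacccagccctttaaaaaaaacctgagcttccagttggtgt
Gbp5: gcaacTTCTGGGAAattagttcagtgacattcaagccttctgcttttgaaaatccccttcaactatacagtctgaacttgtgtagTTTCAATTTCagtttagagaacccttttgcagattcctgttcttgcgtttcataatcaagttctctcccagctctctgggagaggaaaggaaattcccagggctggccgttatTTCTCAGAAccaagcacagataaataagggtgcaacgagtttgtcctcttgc
Oasl1: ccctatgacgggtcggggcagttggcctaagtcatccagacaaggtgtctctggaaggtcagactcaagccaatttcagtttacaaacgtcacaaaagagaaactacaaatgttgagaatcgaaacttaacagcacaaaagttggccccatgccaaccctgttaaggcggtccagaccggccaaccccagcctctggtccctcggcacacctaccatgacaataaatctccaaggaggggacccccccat

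Shorter windows show the element in further genes, some of which lie next to each other or share a family. The 3 further guanylate-binding genes are on the plus strand of chromosome 3, in Gbp2 at chr3:142620579-142620628, Gbp3 at chr3:142559974-142560029 and Gbp7 at chr3:142530258-142530307, and each holds the core on the opposite strand close before the start. The windows of Irgm1 (chr11:48871421-48871475, minus strand) and Irgm2 (chr11:58214888-58214937, plus strand) hold the core on the strand of the gene. So does that of Bst2 (chr8:71537572-71537627, minus strand), where a gamma-activated site overlaps the first core. In Irgm2 a gamma-activated site, also in capitals, lies before the core. The window of Rsad2 is at chr12:26456548-26456597 on the minus strand.
Gbp2: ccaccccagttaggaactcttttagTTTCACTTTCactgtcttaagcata
Gbp3: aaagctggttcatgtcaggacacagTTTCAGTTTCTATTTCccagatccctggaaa
Gbp7: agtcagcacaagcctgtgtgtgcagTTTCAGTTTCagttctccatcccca
Irgm1: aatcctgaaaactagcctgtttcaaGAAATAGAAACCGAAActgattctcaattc
Irgm2: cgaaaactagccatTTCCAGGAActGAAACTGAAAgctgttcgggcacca
Bst2: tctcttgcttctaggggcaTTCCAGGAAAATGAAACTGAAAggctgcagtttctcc
Rsad2: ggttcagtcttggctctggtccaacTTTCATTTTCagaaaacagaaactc

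The genes are clustered in the genome (GENCODE annotation, GRCm38). Chromosome 3 holds the 4 guanylate-binding genes between Gbp5, which starts at 142493978, and Gbp2, which ends at 142638008. Chromosome 5 holds 5 members of the oligoadenylate synthetase family, chromosome 19 the 3 Ifit genes, chromosome 12 Rsad2 next to Cmpk2, and chromosome 16 a group of Parp14, Dtx3l and Parp9. Because the strand setting of the counting is not given in the sources used here, overlapping genes are uncertain. Parp9 and Dtx3l lie on opposite strands and share 9.40% and 8.00% of their exonic bases, and Igtp and Irgm2 lie on the same strand and share 8.01% and 4.39%. Further members share exonic bases with other annotated genes, most of all Ifi35 (16.8%), Rtp4 (13.9%), Herc6 (13.7%) and Gbp7 (11.3%).

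Library totals ran from 16.32 to 33.02 M counts, so that the floor of 3 counts used where a gene had none was worth 0.0909 to 0.184 CPM (counts per 1000000 counts). Floors and intervals cover counting error only. The 10 macrophage markers were abundant in both cell types, summing to 22880 to 33260 CPM in BMDM and 23940 to 29550 CPM in BMSC. The 10 stromal markers summed to 28.4 to 86.5 CPM in BMDM and to 1700 to 10380 CPM in BMSC, so the BMSC libraries hold stromal and macrophage transcripts together, and the growth protocol in their labels also describes macrophage culture. In bulk RNA, fewer cells of a type and less RNA per cell cannot be told apart.

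Summed over the 43 genes, the module took a share of all counts that was highest in the 1 week hypergravity BMDM libraries. It was 2.26% and 2.34% there, against 0.476%, 0.413% and 0.758% in the 1 week BMDM controls. The 3 week BMDM libraries stood at 0.326% and 0.360% in controls and 0.337% and 0.370% under hypergravity. In BMSC the 1 week controls held 0.204%, 0.136% and 0.142% and the 1 week hypergravity libraries 0.145%, 0.129% and 0.106%. The 3 week BMSC controls held 0.457% and 0.567%, and the 3 week hypergravity libraries 0.394% and 0.416%, so the 3 week BMSC libraries lay above every 1 week BMSC library in both arms.

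**Figure D1:**
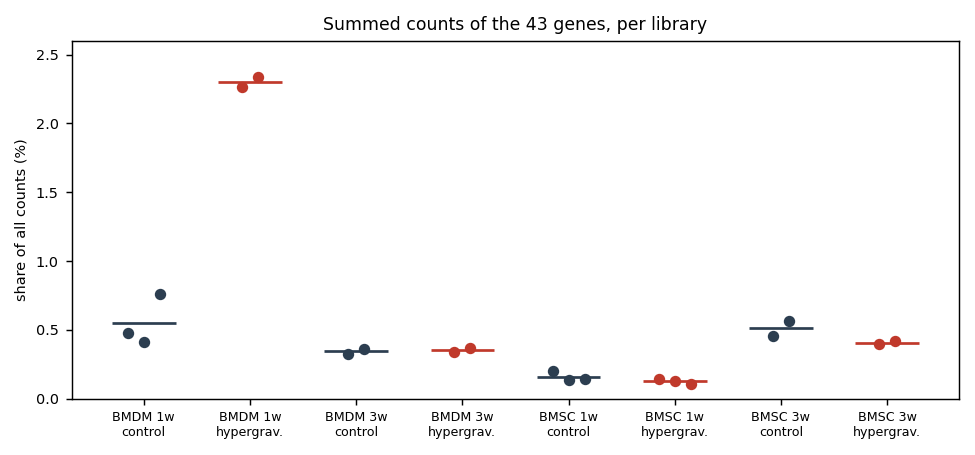
Share of all counts (%, y axis) that fell on the 43 genes in each of 19 libraries, by group (x axis). Points are libraries and horizontal lines are group means. The 2 hypergravity BMDM libraries of the 1 week set reach 2.26% and 2.34%, and no other library exceeds 0.758%.

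Members moved together between replicates as well. Among the 1 week BMDM controls, replicate 3 had the highest CPM for 41 of 43 members, and the median ratio of the highest to the lowest replicate was 1.94. Among the 1 week BMSC controls, replicate 1 was highest for 42 members, with a median ratio of 1.81. In the 3 week BMSC controls, replicate 2 was higher for 43 of 43, with a median ratio of 1.24. The 2 hypergravity BMDM libraries of the 1 week set lay close to each other, with a median ratio of 1.06.

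**Figure D2:**
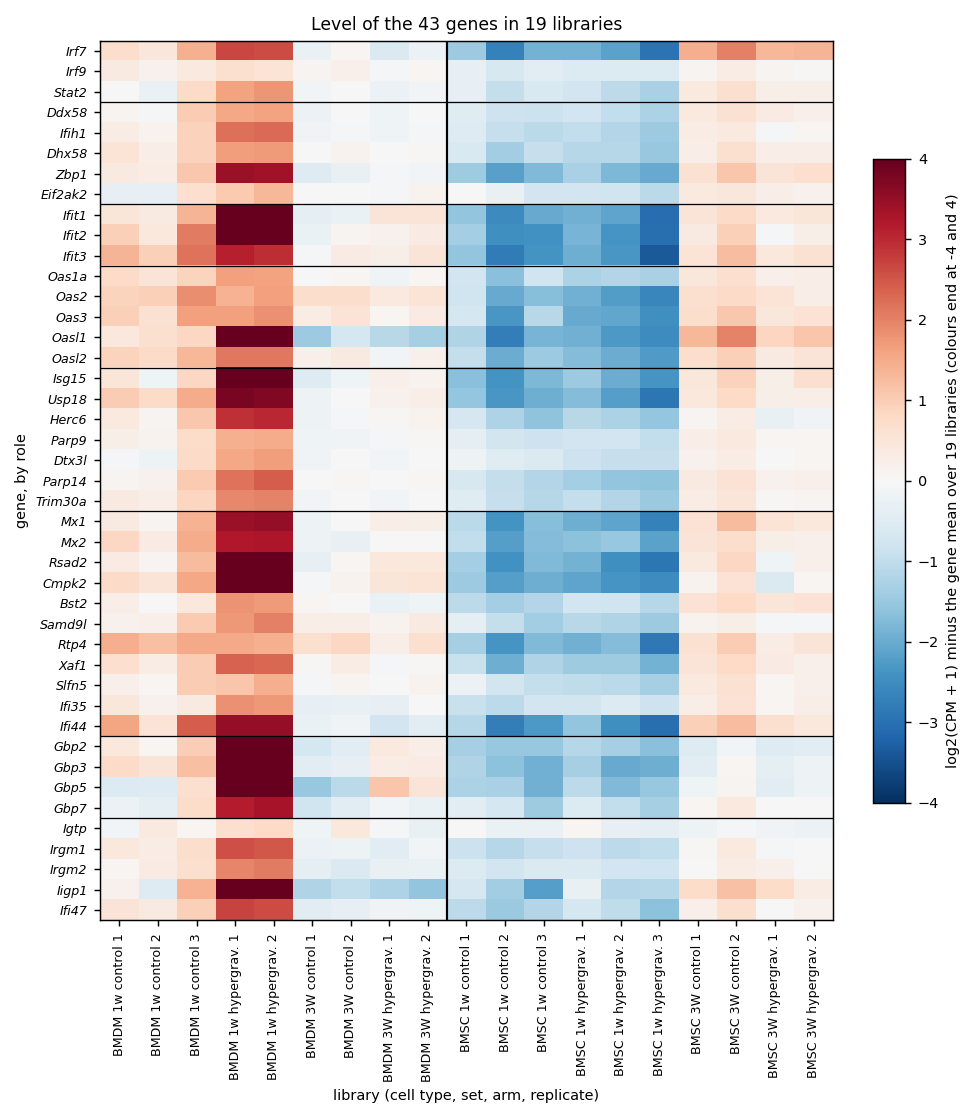
Level of each of the 43 genes (y axis, grouped by role) in each library (x axis), as log2(CPM + 1) minus the mean of the gene over the 19 libraries, with colours ending at -4 and 4. The 1 week hypergravity BMDM columns are the reddest, the 1 week BMSC columns of both arms are blue, and control replicate 3 of the 1 week BMDM set is redder than its 2 partners in 41 of 43 genes.

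In BMDM after 1 week, hypergravity libraries carried far more of the module than controls. Of 43 members tested, 42 rose and 0 fell (edgeR, adjusted p below 0.05), with a median log2 difference of 2.01. Over all 13842 genes, 61.4% were called, 30.5% higher and 30.8% lower, and the median was -0.03. In 40 members both hypergravity libraries lay above all 3 controls, a pattern found in 25% of all genes (43.5% lay below), and Oas2, Oas3 and Rtp4 overlapped. The guanylate-binding genes had the largest median of the 8 role groups, 4.02, followed by the Ifit family at 3.04, and the sensors and the oligoadenylate synthetase family were lower, at 1.43 and 1.18. A scaling by library size alone, without composition factors, moved the median of all genes to -0.29 and that of the members to 1.75, so that the members stood 2.04 above all genes under both scalings. It called 39 members and moved the split of all called genes from 4225 higher and 4269 lower to 3077 and 5803, and changes in this comparison are therefore relative to the bulk of the genes.

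All 3 transcription factors of the response rose. Irf7, which amplifies interferon transcription, stood at 168, 140 and 274 CPM in controls and at 659 and 624 CPM under hypergravity. Every hypergravity library was above every control, and the log2 difference was 1.99 ± 0.23 (SE, adjusted p = 4.33e-05). Stat2, a subunit of the factor complex that type I interferon activates, rose from 124, 102 and 213 CPM to 377 and 426 CPM, again without overlap (1.72 ± 0.23, adjusted p = 0.000123). Irf9, the DNA-binding subunit of that complex, rose least of the 3, by 0.53 ± 0.10 on the log2 scale (adjusted p = 0.000938).

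All 5 nucleic acid sensors rose, by 1.37 to 3.08 on the log2 scale. Zbp1, which binds Z-form nucleic acid and can trigger cell death, went from 39.5, 37.4 and 64.7 CPM in controls to 345 and 320 CPM. The arms were far apart, with a log2 difference of 3.08 ± 0.20 (adjusted p = 5.84e-07). Ifih1, a cytosolic sensor of long double-stranded RNA, went from 88.7, 78.6 and 136 CPM to 334 and 347 CPM (2.02 ± 0.18, adjusted p = 6.54e-06). Ddx58, the sensor of RNA ends also called RIG-I, Dhx58, a regulator of both, and Eif2ak2, the RNA-activated kinase that halts translation, rose by 1.43, 1.37 and 1.40.

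The 3 Ifit genes, whose products bind foreign RNA and hinder its translation, all rose. Ifit1 was at 67.9, 62.4 and 125 CPM in controls and at 927 and 922 CPM under hypergravity. The 2 hypergravity libraries were nearly equal and stood well above the highest control (3.71 ± 0.24, adjusted p = 6.08e-07). Ifit2 had the widest control spread, at 238, 168 and 527 CPM, against 2066 and 2164 CPM under hypergravity. Its log2 difference was 3.04 ± 0.37 (adjusted p = 5.45e-05), and that of Ifit3 was 1.71 ± 0.28 (adjusted p = 0.000418).

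The oligoadenylate synthetase family, whose catalytic members make the messenger that switches on RNase L, was the least uniform. Oasl1, a member without that activity that is known in mice to restrain Irf7 translation, went from 23.5, 27.4 and 31.4 CPM to 590 and 591 CPM. Its log2 difference of 4.70 ± 0.20 (adjusted p = 3.36e-08) was the second largest of the 43 members, after Gbp5. Oas1a, a synthetase, went from 166, 139 and 181 CPM to 307 and 303 CPM, without overlap (1.18 ± 0.11, adjusted p = 1.11e-05). Oas2 was the only member not called, at 124, 128 and 243 CPM in controls and 176 and 209 CPM under hypergravity. Both hypergravity values lay below control replicate 3 and above the other controls, and the log2 difference of 0.49 ± 0.24 had an adjusted p of 0.0983. Without control replicate 3 the difference was 0.85 (adjusted p = 8.63e-07). Without control replicate 1 or 2 it was 0.33 and 0.34 and not called (adjusted p = 0.242 and 0.265). Nor was it called with library size alone (0.22, adjusted p = 0.455). DESeq2 (0.52, adjusted p = 0.0497), the fit without a count filter (0.44, 0.000718) and the replicate block (0.86, 1.0e-07) did call it. Oasl2 rose by 1.36, and Oas3 rose by 0.87 ± 0.24 (adjusted p = 0.00915), a call lost without hypergravity replicate 2 (adjusted p = 0.0618) or with library size alone (0.0526).

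All 7 genes of the Isg15, PARP and TRIM group rose. Isg15, a ubiquitin-like protein that is joined to other proteins, stood at 58.8, 36.6 and 74.1 CPM in controls and at 854 and 825 CPM under hypergravity. The hypergravity libraries differed little from each other, and the log2 difference was 4.16 ± 0.23 (adjusted p = 2.42e-07). Usp18, the protease that removes Isg15 and damps the type I receptor, went from 58.5, 48.9 and 80.8 CPM to 405 and 382 CPM (2.91 ± 0.17, adjusted p = 3.02e-07). Herc6, the main Isg15 ligase of mice, rose by 2.66, the ADP-ribosyltransferase gene Parp14 by 2.06, Dtx3l and Parp9, which encode a ligase and its partner, by 1.65 and 1.35, and Trim30a by 1.69.

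All 11 further antiviral effectors rose, over a wide range. Bst2, the tetherin that holds budding virions at the cell surface, went from 215, 180 and 238 CPM to 618 and 585 CPM. The control spread was small beside this, and the log2 difference was 1.78 ± 0.11 (adjusted p = 4.25e-07). Ifi35 went from 60.4, 49.0 and 55.4 CPM to 157 and 148 CPM (1.73 ± 0.12, adjusted p = 8.86e-07). Rsad2, the radical enzyme viperin that makes a chain-terminating nucleotide, and its neighbour Cmpk2, a nucleotide kinase, rose by 4.21 and 3.45. The dynamin-like GTPase genes Mx1 and Mx2 rose by 3.04 and 2.59. The annotation lists Mx2 as a polymorphic pseudogene, and these values are of transcripts only. Xaf1, Samd9l, Ifi44 and Slfn5 rose by 1.92, 1.61, 2.08 and 1.07.

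Rtp4, which encodes a receptor transporter protein known as a negative regulator of the interferon response, was the weakest call of the set. It stood at 219, 185 and 231 CPM in controls and at 232 and 218 CPM under hypergravity. The arms overlapped in CPM, and the log2 difference of 0.35 ± 0.13 (adjusted p = 0.038) depended on the composition scaling: it was 0.09 (adjusted p = 0.582) with library size alone. The call was also lost without control replicate 2, without either hypergravity library, and without either 3 week control.

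All 4 guanylate-binding protein genes, which encode GTPases that coat pathogen vacuoles and bacteria, rose by 3.40 or more. Gbp3 stood at 59.0, 49.2 and 79.1 CPM in controls and at 740 and 697 CPM under hypergravity. The log2 difference was 3.79 ± 0.16 (adjusted p = 3.96e-08), with no overlap. Gbp2 went from 81.1, 63.2 and 121 CPM to 1428 and 1367 CPM (4.25 ± 0.22, adjusted p = 1.35e-07). Gbp5, which is known to promote inflammasome assembly, had the largest difference of the 43 genes, from 8.17, 8.5 and 20.0 CPM to 578 and 600 CPM (5.87 ± 0.36, adjusted p = 4.13e-07). Gbp7 rose by 3.40 ± 0.28 (adjusted p = 3.32e-06).

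All 5 immunity-related GTPase genes, whose products act on vacuoles of intracellular parasites and bacteria, were called higher. Irgm1, a regulator of the family, stood at 119, 109 and 146 CPM in controls and at 530 and 502 CPM under hypergravity. No value overlapped (2.32 ± 0.13, adjusted p = 2.44e-07). Ifi47 went from 42.6, 37.7 and 58.4 CPM to 198 and 184 CPM (2.31 ± 0.15, adjusted p = 7.03e-07). Iigp1, an effector of the family, rose by 3.73 and Irgm2, a further regulator, by 2.01. Igtp rests on few reads, at 0.192, 0.709 and 0.353 CPM in controls and 1.05 and 1.27 CPM under hypergravity. Its log2 difference of 1.81 ± 0.65 (adjusted p = 0.0334) lost the call without control replicate 1 or either hypergravity library, with DESeq2 (adjusted p = 0.0603) and with library size alone (0.0606).

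**Figure D3:**
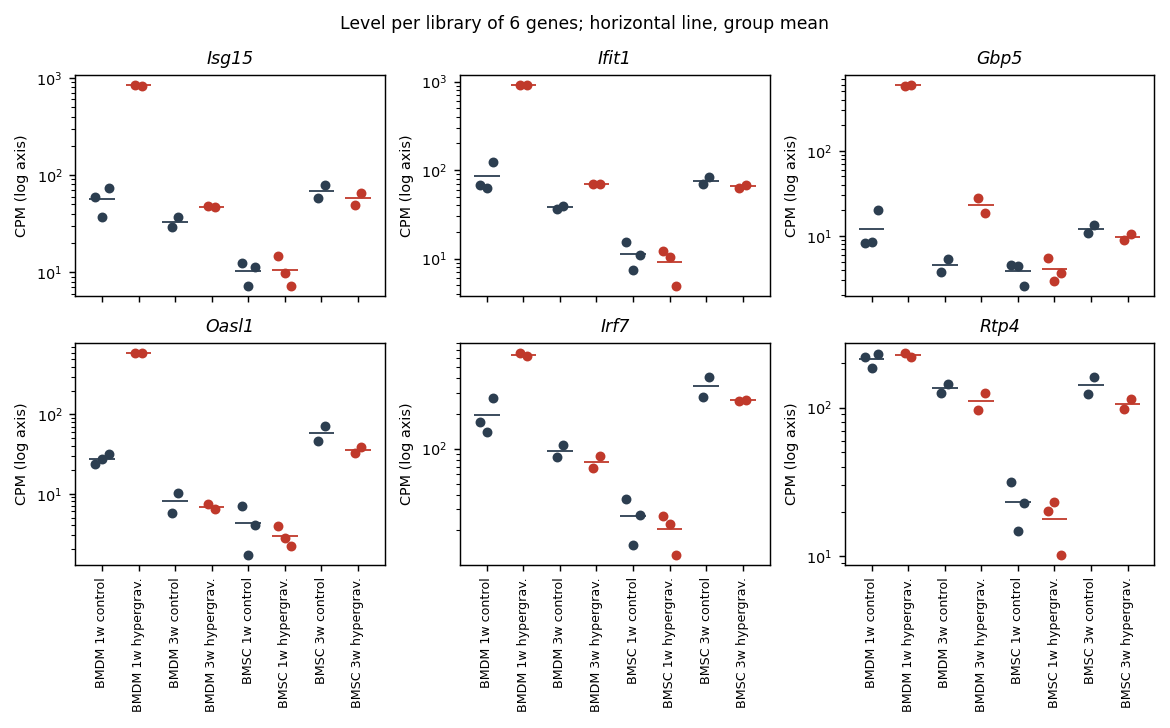
CPM on a log axis (y) for Isg15, Ifit1, Gbp5, Oasl1, Irf7 and Rtp4 in each library, by group (x). Points are libraries and horizontal lines are group means. Oasl1 stands at 590 and 591 CPM in the 1 week hypergravity BMDM libraries and at or below 71.2 CPM in all others, whereas Rtp4 overlaps between the arms of that set.

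Markers of other cells moved in the same comparison, in which 30.5% of all genes were called higher and 30.8% lower. The 8 neutrophil markers summed to 260 to 552 CPM in the 1 week BMDM controls and 185 to 218 CPM under hypergravity, with 5 of 8 called lower. The macrophage markers summed to 29960 to 33260 CPM and 22880 to 23330 CPM, with 2 of 10 called higher and 6 lower. The 6 plasmacytoid dendritic cell markers, one of which is the interferon-related factor gene Irf8, summed to 256 to 298 CPM in controls and 415 to 418 CPM under hypergravity, with Irf8 and Ccr9 called higher and Siglech at or below 0.252 CPM in every library of the set. Their part in the rise of the 43 genes was not tested. The 9 T and NK cell markers summed to 0.250 and 0.454 CPM in the hypergravity libraries, with Cd3d, Cd3g, Cd2 and Ncr1 at 0, and to 1.47 to 2.28 CPM in the controls.

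Transcripts of 2 interferons appeared in the same libraries. Of 21 interferon genes listed, 14 had no count in any library. Ifng, which encodes interferon gamma, had 152 and 280 counts (7.61 and 8.48 CPM) in the 1 week hypergravity BMDM libraries and 0 in the other BMDM libraries. Against the floor of 3 counts over the 3 controls together, that is at least 189-fold higher. Ifnb1, which encodes interferon beta, had 22 and 16 counts in these libraries and 2 in the controls together, a ratio of 24.9 (95% counting interval 6.43 to 213). The remaining listed genes with any count (Ifna4, Ifna7, Ifnab, Ifnk and Ifnz) had 1 to 4 counts over all libraries, and Ifng and Ifnb1 each totalled 3 counts in BMSC.

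Receptors and signal transducers moved both ways in the 1 week BMDM set. Of 10 tested genes, 7 rose and 2 fell, where 30.5% of all genes were called higher and 30.8% lower. Jak2, a kinase of the interferon gamma receptor, stood at 49.3, 51.1 and 65.5 CPM in controls and at 274 and 301 CPM under hypergravity (2.64 ± 0.12, adjusted p = 4.71e-08). Ifngr1, the ligand-binding chain of that receptor, went down from 192, 198 and 193 CPM to 57.4 and 53.6 CPM (-1.54 ± 0.09, adjusted p = 3.07e-07). Stat3, the transducer of several cytokines, rose by 2.11 and Ifnar2, a chain of the type I receptor, by 0.73. Among genes that sense nucleic acid or induce interferon, 10 of 18 rose and 4 fell. The factor genes Irf1 and Irf8 rose by 2.57 and 1.06 and the adaptor gene Ticam1 by 1.76, whereas Tmem173, the adaptor of cytosolic DNA sensing, fell by 1.70 ± 0.09 (adjusted p = 1.96e-07).

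Inhibitors of the pathway rose in 7 of 11 cases and fell in 2, against 30.5% and 30.8% of all genes. Socs3, a feedback inhibitor of cytokine receptors, stood at 1.31, 1.85 and 2.22 CPM in the 1 week BMDM controls and at 519 and 511 CPM under hypergravity (8.46 ± 0.20, adjusted p = 9.7e-10). Socs1, the main brake on interferon gamma signalling, went from 1.28, 1.96 and 2.37 CPM to 42.8 and 39.8 CPM (4.76 ± 0.22, adjusted p = 5.98e-08). The phosphatase gene Ptpn2 rose by 1.53 and the exonuclease gene Trex1 by 1.51. Outside the 43 genes, 34 of 41 listed interferon-stimulated genes rose and 2 fell, led by p by Ifi205 (5.42), Isg20 (3.46), Cxcl9 (5.23) and Phf11b (2.37). Of 13 further genes of the guanylate-binding and immunity-related GTPase families, 10 rose, among them Gbp4 (4.40), Gbp6 (4.73), Gbp11 (5.22) and Tgtp2 (3.96). All 6 class I antigen presentation genes listed rose, for example the transactivator gene Nlrc5 (2.26) and the proteasome activator gene Psme2 (1.91).

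In BMDM after 3 weeks, 1 of 43 members was called higher and 0 lower, against 0.426% of all genes called, all of them higher. The median log2 difference of the members was 0.06. At an unadjusted p below 0.05 there were 5 members (11.6%) and 4.28% of all genes. DESeq2 called 4 members higher, but its share of all genes called was not computed. In 17 members both hypergravity libraries lay above both controls, and in 8 both lay below, compared with 13.2% and 24.5% of all genes. Gbp5 was the called member, at 3.73 and 5.41 CPM in controls and at 28.1 and 18.4 CPM under hypergravity. Both hypergravity values were above both controls, and the log2 difference was 2.39 ± 0.42 (adjusted p = 0.0478). The call was lost with either 1 week hypergravity library left out (adjusted p = 0.100 and 0.101) and with any of the 3 week libraries left out (0.0756 to 0.540), while the difference stayed between 2.03 and 2.67.

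Other members with large 1 week differences did not pass the test at 3 weeks. Ifit1 stood at 36.5 and 39.7 CPM in the 3 week controls and at 70.0 and 69.6 CPM under hypergravity (0.91 ± 0.26, adjusted p = 0.531). Gbp2 stood at 36.7 and 44.3 CPM against 78.6 and 71.9 CPM (0.93 ± 0.24, adjusted p = 0.353), and Gbp3 at 24.5 and 27.1 against 42 and 42.5 CPM (0.75 ± 0.18, adjusted p = 0.28). Isg15 was at 28.9 and 36.6 CPM against 48.1 and 46.4 CPM (0.57 ± 0.25, adjusted p = 1). The arms did not overlap in these 4 genes. Oasl1 did overlap, at 5.75 and 10.3 CPM in controls and 7.44 and 6.33 CPM under hypergravity (-0.18 ± 0.24, adjusted p = 1). Iigp1 stood at 5.99 and 7.10 CPM against 5.86 and 4.42 CPM (-0.30 ± 0.56, adjusted p = 1). Of the listed inhibitors, Socs3 was called at 3 weeks as well, with a log2 difference of 3.33 ± 0.22 (adjusted p = 3.75e-05).

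The response itself differed between the sets. For 41 of 43 members the log2 response was smaller at 3 weeks than at 1 week and for 0 it was larger. Of all genes 43.4% were called, 21.9% higher and 21.5% lower (3037 and 2971 genes, or 4133 and 2201 with library size alone). The median difference of responses, 3 weeks minus 1 week, was -2.04. It was -4.87 ± 0.31 for Oasl1 (adjusted p = 2.36e-06), -3.04 ± 0.24 for Gbp3 (8.31e-06) and -2.02 ± 0.16 for Bst2 (9.5e-06). For Irgm1 it was -2.32 ± 0.20 (1.25e-05) and for Isg15 -3.59 ± 0.34 (2.55e-05). Oas2 and Igtp were the 2 members not called. No library is shared by the 2 responses, and the count ranged from 35 to 43 when 1 library at a time was left out.

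The 2 sets of BMDM controls also differed from each other. Of 43 members, 18 were lower in the 3 week than in the 1 week controls and 0 were higher, with a median of -0.77. Of all genes 3.97% were called, 1.55% higher and 2.41% lower. In 34 members both 3 week controls lay below all 3 of the 1 week controls, which was the case for 14% of all genes, while 20.7% lay above. Oasl1 stood at 23.5 to 31.4 CPM in the 1 week controls and at 5.75 and 10.3 CPM in the 3 week controls (-1.81 ± 0.21, adjusted p = 0.00274). The differences were -1.32 ± 0.17 for Gbp3 (0.00365), -1.30 ± 0.18 for Usp18 (0.00564), -1.10 ± 0.16 for Ifi47 (0.00807) and -0.73 ± 0.12 for Oas1a (0.0117). The count was 33 without control replicate 3 of the 1 week set, the library with the highest levels, and 1 or 2 without either 3 week control. All 8 neutrophil markers were lower in the 3 week controls as well, summing to 27.4 and 59.5 CPM against 260 to 552 CPM, and 4 of 10 macrophage markers were lower and 0 higher, with sums of 24960 and 25460 CPM against 29960 to 33260 CPM. Their part in this difference was not tested.

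**Figure D4:**
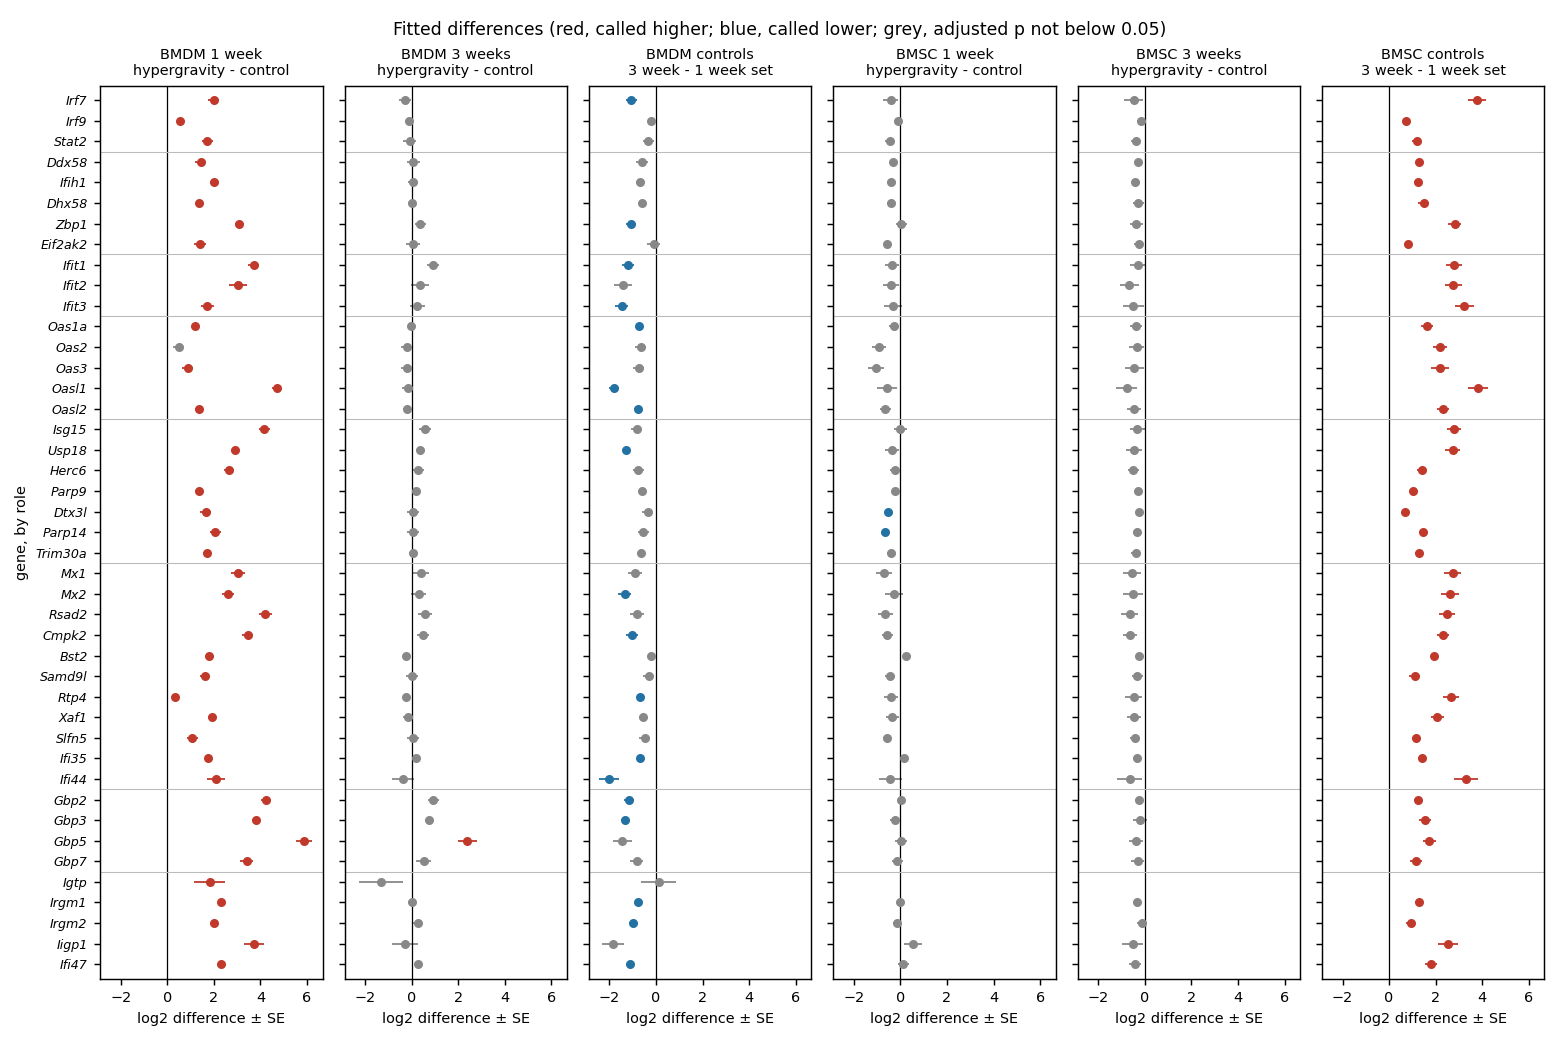
Fitted log2 difference ± SE (x axis) of each gene (y axis, grouped by role) in 6 comparisons. Red and blue points were called higher and lower at an edgeR adjusted p below 0.05, and grey points were not called. The first panel holds 42 red points, the second 1 (Gbp5), the last 42, and the 2 BMSC hypergravity panels hold 2 and 0 blue points.

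In BMSC no member passed the test for a rise under hypergravity in either set. After 1 week, 0 of 42 tested members were called higher and 2 lower, where 2.72% of all genes were called, 0.249% higher and 2.47% lower (38 and 378 genes, or 67 and 215 with library size alone), with a median of -0.36. At an unadjusted p below 0.05 there were 12 members (28.6%) and 18.5% of all genes. DESeq2 called 5 members lower and 0 higher, but its share of all genes called was not computed. Igtp had too few counts to be tested. Parp14 stood at 188, 149 and 127 CPM in controls and at 113, 96.5 and 95.6 CPM under hypergravity (-0.64 ± 0.13, adjusted p = 0.035). Dtx3l, on chromosome 16 as well, stood at 68.9, 56.2 and 52.5 CPM against 44.5, 41.0 and 41.0 CPM (-0.52 ± 0.11, adjusted p = 0.0356). All hypergravity libraries lay below all controls in these 2 genes and in Slfn5, which was not called, and in the other 40 members the arms overlapped. Of all genes 8.75% lay below without overlap and 10.2% above. Both calls were lost without control replicate 1, the library with the highest levels for 42 members (adjusted p = 0.124 and 0.135), without any 1 of the hypergravity libraries, and without any 1 of the 3 week libraries. The count of members called lower rose to 8 without control replicate 2 and to 4 without replicate 3.

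Isg15, Gbp5 and Irf7, all higher in 1 week hypergravity BMDM, were not called in 1 week BMSC. Isg15 stood at 12.3, 7.19 and 11.2 CPM in the 1 week BMSC controls and at 14.7, 9.76 and 7.21 CPM under hypergravity, a difference of -0.00 ± 0.28 (adjusted p = 0.998). Gbp5 stood at 4.56, 4.45 and 2.58 CPM against 5.52, 2.94 and 3.69 CPM (0.04 ± 0.26, adjusted p = 0.954). The arms overlapped in both. Irf7 was at 36.8, 14.8 and 26.9 CPM against 26.5, 22.3 and 12.3 CPM (-0.42 ± 0.34, adjusted p = 0.553).

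After 3 weeks, 0 of 42 members were called in either direction in BMSC, where 0% of all genes were called, and DESeq2 called 0 members as well. The median was -0.38, and 1 member (2.38%) and 5.23% of all genes had an unadjusted p below 0.05. Both hypergravity libraries lay below both controls in 34 of 43 members, against 14.2% of all genes, and above them in 0, against 30.6%. Oasl1, for example, stood at 45.6 and 71.2 CPM in controls and at 32.5 and 38.7 CPM under hypergravity (-0.78 ± 0.45, adjusted p = 0.899). Irf7 was at 278 and 416 CPM against 257 and 264 CPM (-0.48 ± 0.39, adjusted p = 0.923). The response did not pass the test of a difference between 3 weeks and 1 week for any member, where 0% of all genes passed. At an unadjusted p below 0.05 there were 1 member and 9.31% of all genes. DESeq2 called 0 members in that test.

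The module differed widely between the 2 sets of BMSC controls. The hypergravity libraries of the sets differed as well in the mean share of counts on the module, 0.127% at 1 week and 0.405% at 3 weeks against 0.160% and 0.512% in controls, a difference that was not tested. All 42 tested members were higher in the 3 week than in the 1 week controls, with a median log2 difference of 1.75. Of all genes 7.05% were called, 3.32% higher and 3.73% lower. In 42 members both 3 week controls lay above all 3 of the 1 week controls, against 18.6% of all genes (24.8% lay below), and Igtp overlapped. Irf7 stood at 36.8, 14.8 and 26.9 CPM in the 1 week and at 278 and 416 CPM in the 3 week controls (3.76 ± 0.38, adjusted p = 0.000749). Zbp1 stood at 10.8, 5.97 and 8.16 CPM against 47.2 and 66.4 CPM (2.82 ± 0.27, adjusted p = 0.000749). The lowest 3 week control was above the highest 1 week control by a wide margin in both genes. Isg15 was at 12.3, 7.19 and 11.2 CPM against 57.3 and 79.6 CPM (2.78 ± 0.30, adjusted p = 0.000971). Bst2 was at 86.5, 69.2 and 78.7 CPM against 268 and 314 CPM (1.94 ± 0.15, adjusted p = 0.000371). For Parp14 the difference was 1.44 ± 0.15 (adjusted p = 0.000868). Without replicate 2 of the 3 week controls, the library higher for all 43 genes, 21 members were called.

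The order of the genes in this control difference was not that of the 1 week BMDM response, with which it shares no library. Oasl1 (3.82) and Irf7 (3.76) led, and the Ifit family had the largest median of the role groups, 2.78, with Ifit3 at 3.23. The 4 guanylate-binding genes ranged only from 1.16 to 1.72, although their median in the BMDM response was 4.02. Conversely Rtp4, with 0.35 in the BMDM response, stood at 2.67 here, and Oas2, with 0.49 there, at 2.20. The difference between these 2 contrasts was not tested gene by gene.

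**Figure D5:**
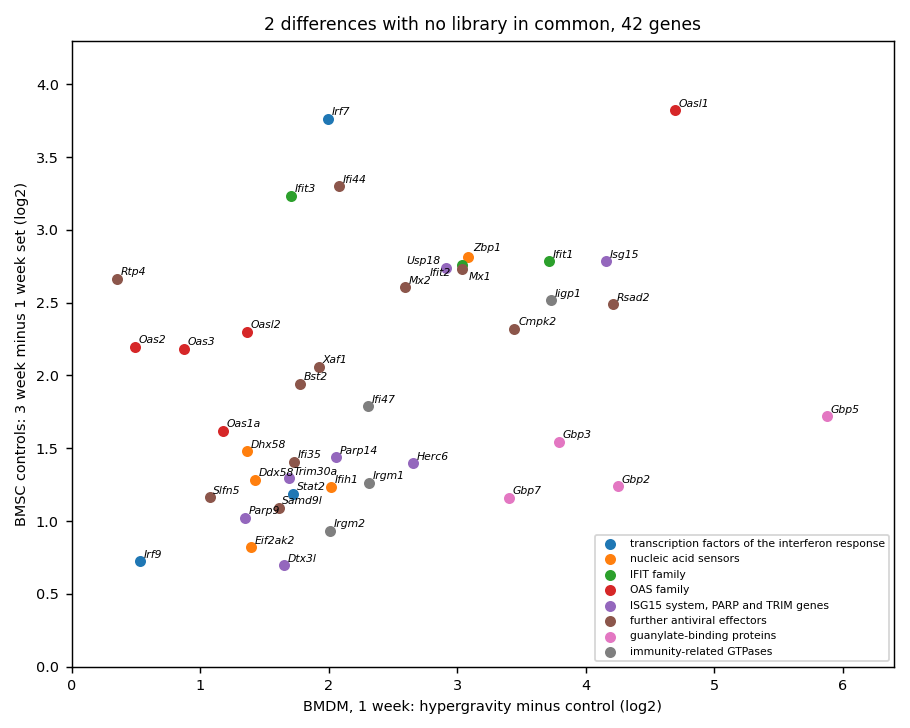
For 42 genes, the log2 difference between hypergravity and control BMDM at 1 week (x axis) and between the 3 week and 1 week BMSC controls (y axis), coloured by role. The contrasts have no library in common. Guanylate-binding genes lie at the lower right (Gbp5 at 5.87 and 1.72), and Rtp4, Oas2, Irf7 and Ifit3 lie towards the upper left.

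Other genes of the pathway differed between the BMSC controls too, where 3.32% of all genes were called higher and 3.73% lower. Of the further interferon-stimulated genes, 37 of 41 were higher in the 3 week controls and 0 lower, as were 5 of 10 further guanylate-binding and immunity-related GTPase genes and 5 of 6 class I presentation genes. Ifng had 1 count in each 3 week control and 1 in the 1 week controls together, and Ifnb1 had 1 count in the 3 week and 2 in the 1 week controls. Markers of other cells differed as well. The stromal markers summed to 3271 to 9625 CPM in the 1 week and to 1700 and 2166 CPM in the 3 week controls, with 1 of 10 called lower. The 6 endothelial markers summed to 190 to 348 CPM and to 119 and 122 CPM, with 2 called lower, and 5 of 10 macrophage markers were higher and 0 lower. The 9 T and NK cell markers summed to 6.08 to 8.86 CPM and 7.78 to 10.1 CPM, with Gzmb, Ncr1 and Cd3g called higher. Their part in the difference was not tested.

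The median shift between control sets had opposite signs in the 2 cell types, 1.75 in BMSC and -0.77 in BMDM. In BMDM, 18 of 43 members were called lower and 25 were not called. In a fit of all 19 libraries, added after the data had been seen, the difference between 3 week and 1 week controls was larger in BMSC than in BMDM for 41 of 43 members and smaller for 0, where 5.06% of all genes were called larger and 2.86% smaller. The median of this difference of differences was 2.68. What is tested is that difference and not the sign of either shift. It was 5.69 ± 0.53 for Oasl1 (adjusted p = 1.02e-05), 4.87 ± 0.51 for Irf7 (2.01e-05) and 2.23 ± 0.20 for Bst2 (8.14e-06). Eif2ak2 and Igtp were not called.

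Controls of BMDM carried more of the module than controls of BMSC in the 1 week set and less in the 3 week set, and the tested difference is the average of the 2 sets. Of 43 members, 34 were higher in BMDM and 0 lower, with a median of 0.72. Of all genes 49.8% were called, 22.2% higher and 27.7% lower (3447 and 4301 genes, or 2343 and 5360 with library size alone). In the 1 week set all BMDM controls lay above all BMSC controls for 40 members and below for 0, against 15.5% and 34.7% of all genes. In the 3 week set they lay above for 1 member and below for 35, against 27.1% and 41.5% of all genes. Irf7, for example, stood at 84.6 and 107 CPM in the 3 week BMDM controls and at 278 and 416 CPM in those of BMSC. Rtp4 controls stood at 219, 185 and 231 CPM in BMDM and 31.6, 14.9 and 22.7 CPM in BMSC in the 1 week set, but at 126 and 144 CPM and 123 and 162 CPM in the 3 week set, where the cell types overlap. The averaged difference was 1.69 ± 0.20 for Rtp4 (adjusted p = 3.1e-06), 1.27 ± 0.17 for Gbp3 (1.07e-05) and 1.44 ± 0.20 for Cmpk2 (1.69e-05). For Usp18 it was 1.34 ± 0.19 (2.34e-05) and for Gbp2 1.02 ± 0.15 (2.62e-05). In the 3 week controls, however, mean CPM was lower in BMDM than in BMSC for Gbp3 (25.8 against 30.4) and Cmpk2 (57.8 against 71.7). The same held for Usp18 (26.3 against 44.5) and Gbp2 (40.5 against 48.7), so these positive averages come from the 1 week set.

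The 1 week response differed between the libraries labelled BMDM and BMSC in most of the module. The BMSC libraries also hold macrophage transcripts, so macrophages are not set against stromal cells alone here. It was larger in BMDM than in BMSC for 41 of 43 members and smaller for 0, with a median of 2.26. Of all genes 49.6% were called, 24.8% larger and 24.7% smaller (3864 and 3846 genes, or 2661 and 5366 with library size alone). The difference of responses was 4.20 ± 0.28 for Gbp2 (adjusted p = 3.59e-09), 5.83 ± 0.46 for Gbp5 (2.88e-08) and 4.0 ± 0.32 for Gbp3 (2.9e-08). For Irgm1 it was 2.32 ± 0.20 (7.19e-08) and for Cmpk2 4.0 ± 0.38 (2.43e-07). Rtp4 (0.76 ± 0.37, adjusted p = 0.103) and Igtp (1.86 ± 1.28, adjusted p = 0.242) were not called.

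Compared per kilobase of exonic length, Bst2 had the highest mean level of the 43 genes in 7 of the 8 groups, with 234 CPM per kb in the 1 week BMDM controls, 86.5 in the 1 week BMSC controls and 323 in the 3 week BMSC controls. In the 1 week hypergravity BMDM group Isg15 came first with 1110 CPM per kb, followed by Bst2 at 666, Gbp2 at 556 and Ifit2 at 539. In the 1 week BMDM controls, Bst2 was followed by Ifit3 at 126 and Rtp4 at 99.4 CPM per kb. In the 3 week BMSC controls it was followed by Irf7 at 91.9 and Isg15 at 90.6 CPM per kb. In the 1 week BMSC controls these were not among the first 6. Exonic length is the union of all annotated exons of a gene, 903 bases for Bst2 and 3776 for Irf7. The ranks therefore depend on the annotation.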

How the data were processed

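The values deposited by the authors are raw gene counts, with 1 line per symbol and 1 column per library. Per the submitters' processing notes, HISAT2 2.0.4 and the mm10 build were used. How reads were assigned to genes, on which annotation and with what strand setting, is not given in the sources used here. From the counts, CPM were computed per raw library total. Counts were tested with edgeR 4.0.16 (R 4.3.3) by the quasi-likelihood test, with TMM scaling, the filterByExpr filter and 1 coefficient per group, and Benjamini-Hochberg adjustment ran over every gene tested. BMDM (9 libraries, 13842 genes, 5 residual degrees of freedom) and BMSC (10 libraries, 15289 genes, 6) were fitted apart, and contrasts between cell types used all 19 libraries (15550 genes). A gene was called at an adjusted p below 0.05, and SE is the log2 difference divided by the root of the F statistic. For the hypergravity BMDM libraries of the 1 week set the TMM factors were 0.853 and 0.868, and ratios of CPM are therefore smaller than fitted folds. The steps were tested on simulated counts.

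The 43 genes and all lists were chosen with earlier results of these data known. Named with values per library were, in the 1 week BMDM comparison, the 2 called genes of each role with the smallest p that averaged at least 5 CPM in an arm and every gene not called, and the 5 called genes with the smallest p in each other comparison. In the pathway lists, up to 4 called genes with the smallest p were named, and every interferon with a count. Some results are not reported here. Further genes with values (Rtp4, Igtp and Gbp5 at 1 week, Ifit1, Gbp2, Gbp3, Isg15, Oasl1 and Iigp1 at 3 weeks, and the BMSC and control examples) were chosen after their values were seen.

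Alternatives were DESeq2 1.42.0, edgeR with DESeq2 size factors, no filter on counts, at least 1 CPM in at least 2 libraries, a replicate block, a fit of only the groups compared, and omission of each library. Library size alone, a fit of all libraries for within-cell-type contrasts and the difference of control shifts between cell types were added after seeing the data.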

Additional observations from a re-analysis of the deposited data

Results flagged for a closer look

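Responses that differed between sets or cell types, by a test of the difference itself in edgeR, were marked for a closer look. Groups of 2 or 3 libraries are too small for a test of single outlying samples. Between the sets of BMDM, 3 weeks minus 1 week, 41 members differed, among them Oasl1 (-4.87), Gbp3 (-3.04), Bst2 (-2.02), Irgm1 (-2.32) and Isg15 (-3.59 on the log2 scale). Between cell types at 1 week, BMDM minus BMSC, 41 members differed, among them Gbp2 (4.20), Gbp5 (5.83), Gbp3 (4.0), Irgm1 (2.32) and Cmpk2 (4.0). The control shift, 3 week minus 1 week set, differed between the cell types for 41 members as well. With its sign kept, it was higher in BMSC in each case. Its median over the members was 1.75 in BMSC and -0.77 in BMDM. Duration, set and any step in which the sets were handled apart cannot be told apart in these differences.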

How the results depend on the processing

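The 1 week BMDM count of 42 members stayed between 39 and 43 with each library left out, the BMDM difference of responses between 35 and 43 (41 in the reported fit), the BMDM to BMSC control difference between 30 and 35 (34), the 1 week difference between cell types between 41 and 42 (41), and the difference of control shifts between 37 and 42 (41). The other counts moved. For most settings the share of all genes called was not computed, so these counts are not set against it. The count higher in 3 week BMDM (1) was 7 without a count filter, 0 with the 1 CPM filter, 4 with DESeq2, 0 with library size alone and 7 with only the groups compared, and 0 to 6 with each library left out. The count lower in the 3 week BMDM controls (18) was 36 without a count filter and 3 with only the groups compared, and 1 to 33 with each library left out, where the count higher was 0 to 1. The count lower in 1 week BMSC (2) was 18 without a filter, 5 with DESeq2, and 0 with library size alone, only the groups compared or all 19 libraries, and 0 to 8 with each library left out. Without a count filter, 1 member was higher in 1 week BMSC, 10 were lower in 3 week BMSC and 1 in the BMSC difference of responses. The count higher in the 3 week BMSC controls (42) was 21 to 42. Eif2ak2 in the BMDM controls, -0.10 and not called, ranged from -0.27 to 0.30 with each library left out and was called higher without 1 week control replicate 3 (adjusted p = 0.0466). Causes were not tested.

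Whether replicate numbers pair the samples is not known. Deviations from the group mean correlated by -0.105 to 0.382 between same-numbered libraries and by -0.456 to 0.429 between differently numbered ones. These values cannot decide it, because in a group of 2 libraries the deviations are mirror images of each other. With the replicate block, 6 members were higher in 3 week BMDM, 33 lower and 1 higher in the 3 week BMDM controls, and Eif2ak2 was at 0.30 (adjusted p = 0.0316). Number 3 occurs in a single BMDM library, to which the block gives no weight. The share of all genes called with the block was not computed.

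The 2 or 3 libraries per group limit precision, and Igtp, at most 1.27 CPM, is limited by its few counts.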
